A study of Homo sapiens with 13 samples.

Results

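The genes examined here were 8 transcription factors of myeloid differentiation, SPI1, CEBPA, CEBPB, CEBPD, CEBPE, GFI1, IRF8 and KLF4. They were taken by name from the 20033 protein-coding genes of GENCODE version 44, and all 8 were found. For each gene, every PTBP1 and RUNX1 peak in the gene or in the 50 kb on either side was collected, which gave 18 of the 9370 PTBP1 peaks and 14 of the 7688 RUNX1 peaks. The cells were MOLM-13, an established human acute myeloid leukemia line, profiled as wild-type cells with no treatment named in the labels. PTBP1 is an RNA-binding protein best known for its control of splicing, while RUNX1 is a DNA-binding transcription factor of blood cells. Of the 13 libraries, CUT&Tag, which uses an antibody to direct a transposase to the bound protein, was run for PTBP1 and RUNX1 with 2 libraries each and for IgG with 1. CUT&RUN, which cuts chromatin at the antibody with a nuclease, was run with 2 libraries each for PTBP1, RUNX1, H3K27me3 and IgG. Every library came from the same line, so the values describe MOLM-13 and no other leukemia. The values below come from 1 peak list per target on hg38, so they carry no spread between replicates, and the intervals given cover counting error only.

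Myeloid cells arise from blood stem and progenitor cells under the control of a small set of transcription factors that act on each other's genes. SPI1 encodes PU.1, an ETS factor needed for myeloid and lymphoid cells, and RUNX1 is known to bind an upstream regulatory element of this gene. The C/EBP factors are leucine zipper proteins. CEBPA starts the granulocyte program and has a known myeloid enhancer downstream of the gene, CEBPB acts in emergency granulopoiesis, CEBPD is induced by inflammatory signals, and CEBPE drives the late granule genes. GFI1 is a zinc finger repressor that favours neutrophils, while IRF8 and KLF4 act in monocytes, IRF8 also in dendritic cells.

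Each peak is described by its fold enrichment, the deposited ratio of summit pileup to background, with 1 added to both. A peak was placed at the transcription start site (TSS) if it came within 1 kb of the 5′ end of the gene, otherwise in the gene body, otherwise as distal. Sequence under the summits was searched on both strands, 50 bases to each side of the summit, for short motifs of RUNX factors (TGTGGT or TGCGGT), PU.1 (GAGGAA), C/EBP (TTGCNNAA), an ETS-IRF composite (GGAANNGAA), GFI1 (AATCANNGC) and KLF factors (GGGNGTGG). The RUNX and KLF letters can overlap. The first set shows the strongest RUNX1 summit of each gene, on the strand of the gene and in 5′ to 3′ direction from hg38, to compare the letters at the summits where RUNX1 was most enriched. Capitals mark a motif match on either strand, and a match is a description of the letters and not evidence of binding.
CEBPA, RUNX1 summit 41.7 kb downstream of the TSS, chr19:33260748-33260848, minus strand: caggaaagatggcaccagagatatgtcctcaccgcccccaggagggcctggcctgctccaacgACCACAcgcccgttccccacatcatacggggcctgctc
CEBPE, RUNX1 summit 34.3 kb upstream of the TSS, chr14:23154545-23154645, minus strand: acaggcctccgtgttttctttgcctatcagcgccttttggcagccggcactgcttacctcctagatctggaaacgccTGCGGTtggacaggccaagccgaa
KLF4, RUNX1 summit 650 bases downstream of the TSS, chr9:107489782-107489882, minus strand: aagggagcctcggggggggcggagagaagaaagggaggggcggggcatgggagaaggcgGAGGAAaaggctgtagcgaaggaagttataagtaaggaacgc
SPI1, RUNX1 summit 29.8 kb upstream of the TSS, chr11:47408317-47408417, minus strand: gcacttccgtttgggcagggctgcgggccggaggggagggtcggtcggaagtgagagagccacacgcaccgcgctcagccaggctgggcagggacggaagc

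The RUNX motif stood at the CEBPA summit as ACCACA, the reverse complement of TGTGGT, and at the CEBPE summit as TGCGGT. The KLF4 window held the PU.1 letters. The SPI1 window, at the TSS of another gene, held none of the 6 motifs. The next set shows the strongest PTBP1 summit of each gene in the same way, to compare the sites of a protein known for RNA binding with those of RUNX1.
CEBPA, PTBP1 summit 8.9 kb downstream of the TSS, chr19:33293571-33293671, minus strand: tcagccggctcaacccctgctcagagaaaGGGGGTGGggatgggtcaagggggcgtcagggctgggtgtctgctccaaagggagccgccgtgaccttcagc
GFI1, PTBP1 summit 730 bases downstream of the TSS, chr1:92486145-92486245, minus strand: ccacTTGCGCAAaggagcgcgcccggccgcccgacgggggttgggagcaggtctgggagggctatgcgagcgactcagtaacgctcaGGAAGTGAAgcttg
IRF8, PTBP1 summit 29.4 kb downstream of the TSS, chr16:85928458-85928558, plus strand: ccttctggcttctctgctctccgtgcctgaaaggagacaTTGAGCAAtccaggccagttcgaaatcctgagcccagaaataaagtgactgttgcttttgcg
SPI1, PTBP1 summit 19.2 kb downstream of the TSS, chr11:47359258-47359358, minus strand: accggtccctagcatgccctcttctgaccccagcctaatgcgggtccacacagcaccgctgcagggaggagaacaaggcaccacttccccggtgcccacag

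At GFI1, the PTBP1 window in intron 1 held the C/EBP letters as a palindrome, which reads alike on both strands, and the ETS-IRF letters near its downstream end. The IRF8 window held the C/EBP letters and the CEBPA window the KLF letters. A further set was chosen after the values were seen, for its RUNX matches or for its place upstream of SPI1 and at the IRF8 TSS.
GFI1, RUNX1 summit 25.04 kb downstream of the TSS, chr1:92461839-92461939, minus strand: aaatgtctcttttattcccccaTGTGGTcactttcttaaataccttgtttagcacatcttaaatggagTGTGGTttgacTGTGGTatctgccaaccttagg
GFI1, PTBP1 summit 26.9 kb downstream of the TSS, chr1:92460019-92460119, minus strand: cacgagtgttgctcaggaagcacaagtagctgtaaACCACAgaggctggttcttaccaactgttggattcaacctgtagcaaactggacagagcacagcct
CEBPA, RUNX1 summit 35.3 kb downstream of the TSS, chr19:33267186-33267286, minus strand: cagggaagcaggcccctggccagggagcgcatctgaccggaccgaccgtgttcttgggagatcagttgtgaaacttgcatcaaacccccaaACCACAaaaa
SPI1, RUNX1 summit 16.3 kb upstream of the TSS, chr11:47394764-47394864, minus strand: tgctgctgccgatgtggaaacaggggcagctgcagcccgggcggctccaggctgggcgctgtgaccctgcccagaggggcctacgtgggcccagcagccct
IRF8, PTBP1 summit 245 bases upstream of the TSS, chr16:85898821-85898921, plus strand: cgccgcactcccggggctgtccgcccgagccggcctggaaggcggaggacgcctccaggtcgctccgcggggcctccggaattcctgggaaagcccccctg

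The GFI1 window 25.04 kb downstream held 3 copies of TGTGGT in the same orientation, the most in any window shown. The SPI1 and IRF8 windows of this set held no match. Windows in a UTR, which included the RUNX1 summit at the GFI1 TSS, were left out, and no sequence is shown for CEBPB or CEBPD.

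PTBP1 peaks were found in the windows of 5 of the 8 genes, SPI1, CEBPA, CEBPD, GFI1 and IRF8, against 52.1% of all protein-coding genes. RUNX1 peaks were found in the windows of 7 genes, all except IRF8, against 52.8% of all protein-coding genes. Peaks of both lists lay in the windows of 4 genes, SPI1, CEBPA, CEBPD and GFI1, against 44.2% of all genes. Each of the 8 genes had at least 1 peak of either list. Over all protein-coding genes this share is at least the 52.8% with a RUNX1 peak, so the count is not read as particular to the set. The median number of peaks per gene was 2.5 for PTBP1 (range 0 to 5) and 1.5 for RUNX1 (range 0 to 3), and the median over all protein-coding genes was 1 for both (quartiles 0 and 2). These counts are descriptions on which no test was made. The map of the peaks shows CEBPA, GFI1, SPI1 and IRF8 with most of the peaks, and CEBPB, CEBPE and KLF4 with 1 each.

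**Figure D1:**
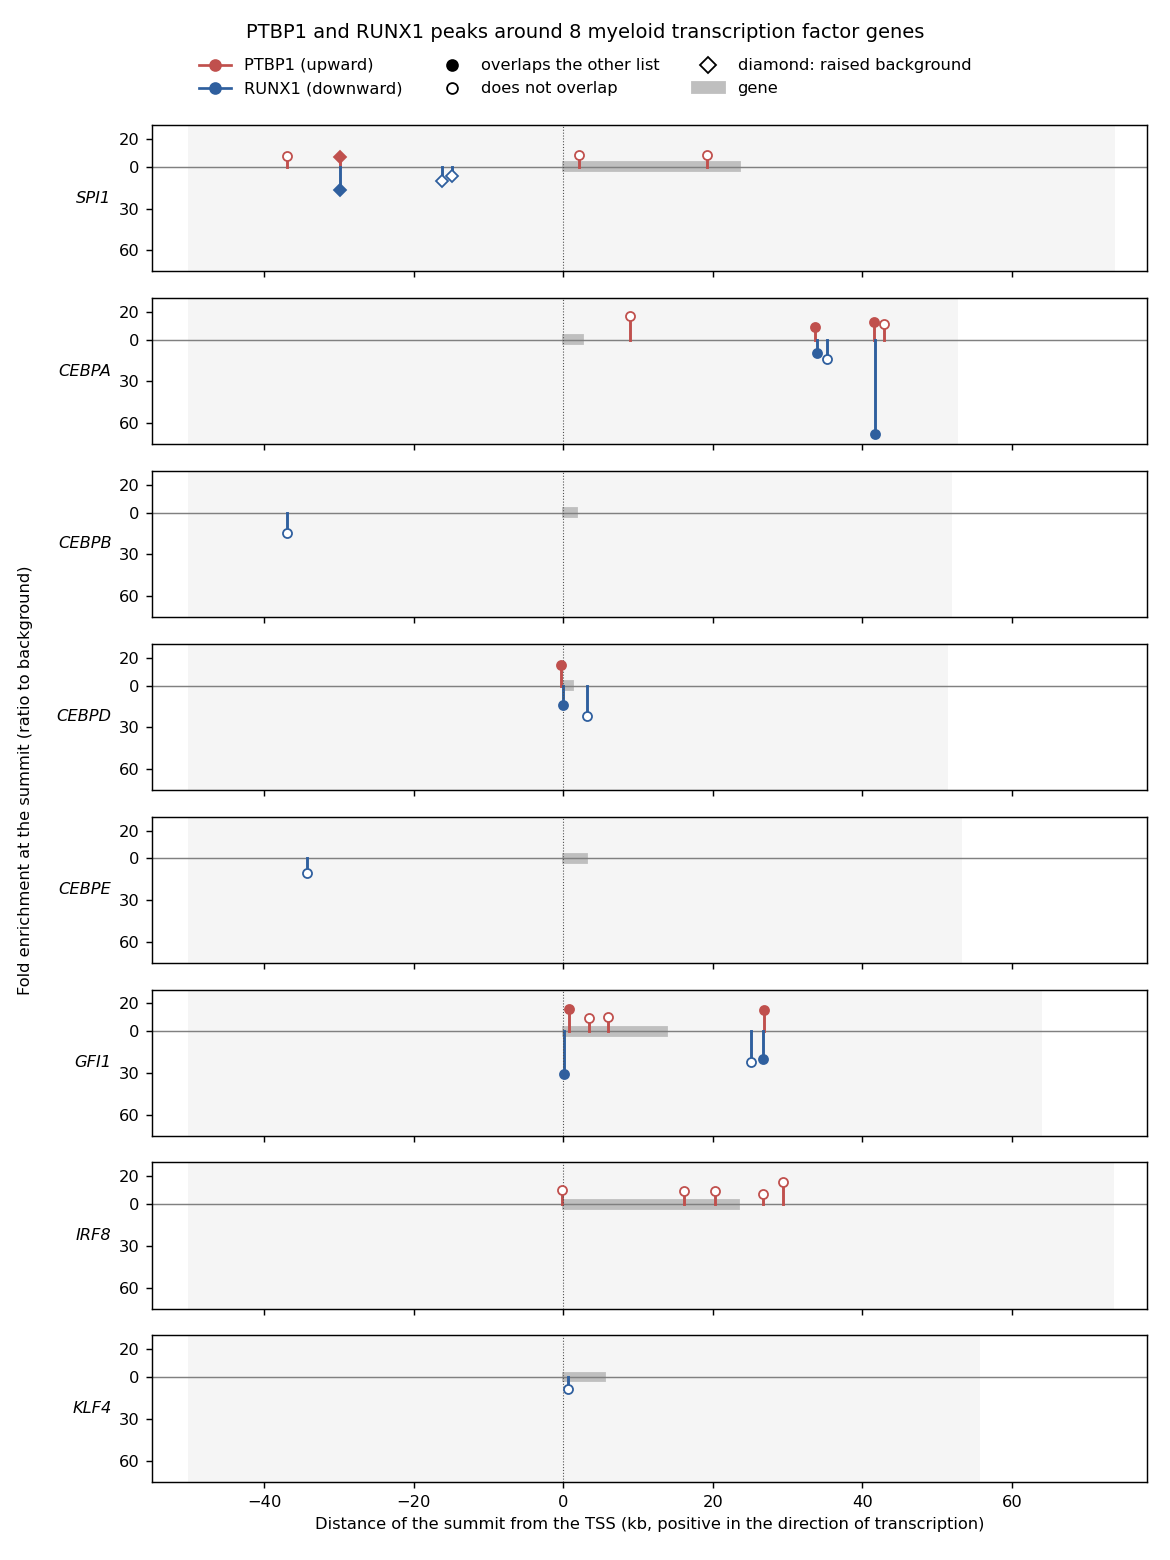
Peaks around the 8 genes, with the distance of the summit from the TSS in kb on the horizontal axis and the fold enrichment at the summit on the vertical axis, PTBP1 upward and RUNX1 downward. Light shading marks the gene and the 50 kb on either side, filled symbols mark peaks that overlap a peak of the other list, and diamonds mark peaks on a raised background. The RUNX1 peak 41.7 kb downstream of the CEBPA TSS, at 67.7, is the strongest of the 14 RUNX1 peaks.

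At the TSS, PTBP1 peaks were present for 3 of the 8 genes, CEBPD, GFI1 and IRF8, against 26.4% of all protein-coding genes. RUNX1 peaks were present at the TSS of 3 genes, CEBPD, GFI1 and KLF4, against 21.3%. Both lists had a TSS peak at CEBPD and GFI1, 2 of 8 genes, against 17.3%. No TSS peak of either list was called at SPI1, CEBPA, CEBPB or CEBPE. With 8 genes in all, a single gene more or less changes each share widely, and these counts are not read as particular to the set.

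The median GC content in the 500 bases on either side of the TSS was 63.7% for genes with a PTBP1 peak there, 63.8% for those with a RUNX1 peak and 56.5% for those with neither. Among the 8 genes, those richest in G and C were found both with and without a TSS peak. CEBPA, at 77.1%, and CEBPB, at 76.0%, had no TSS peak, while CEBPD, at 76.2%, had one of each list and GFI1, at 60.04%, also had both. The ratio of observed to expected CpG was lowest at CEBPE, at 0.187, and SPI1, at 0.291, both without a TSS peak, and ran from 0.820 at GFI1 to 1.00 at IRF8 in the rest. The rest included CEBPA, at 0.941, and CEBPB, at 0.859, which also had no TSS peak. The median over all genes was 0.688. All of these values are taken at the annotated 5′ end of the gene. That end differs from the start of the canonical transcript at CEBPE, KLF4 and, by less, IRF8. The RUNX1 summit near CEBPE lay 34339 bases from the 5′ end and 35340 from the canonical start. The values at CEBPE and KLF4 may therefore not describe the promoter of the canonical transcript.

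Peaks were counted by position in each list, with no test between the lists. Of the 18 PTBP1 peaks, 3 lay at the TSS of the gene itself, 6 in its body and 9 were distal. Of the 14 RUNX1 peaks, 3 lay at the TSS, 0 in the body and 11 were distal. When the peaks in the windows of all protein-coding genes were placed in the same way, with a peak counted once for each gene window it fell in, 15.0% of PTBP1 placements were at the TSS, 11.9% in the gene body and 73.1% distal. The same shares for RUNX1 were 19.3%, 13.9% and 66.8%. Of the 8 genes, 3, CEBPA, CEBPB and CEBPD, have 1 exon and therefore no intron in which a peak could lie, and the other 5 have introns. By the position of the summit in the canonical transcript, 5 PTBP1 summits fell in introns of the genes and 2 in exons, while 0 RUNX1 summits fell in introns and 1 in an exon. The distal PTBP1 peaks comprised 5 in intergenic sequence, 2 in the body of another gene and 2 at the TSS of another gene. Among the distal RUNX1 peaks, 5 were intergenic, 4 were in the body of another gene and 2 were at the TSS of another gene. Peak position alone does not assign a distal peak to the gene examined.

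**Figure D2:**
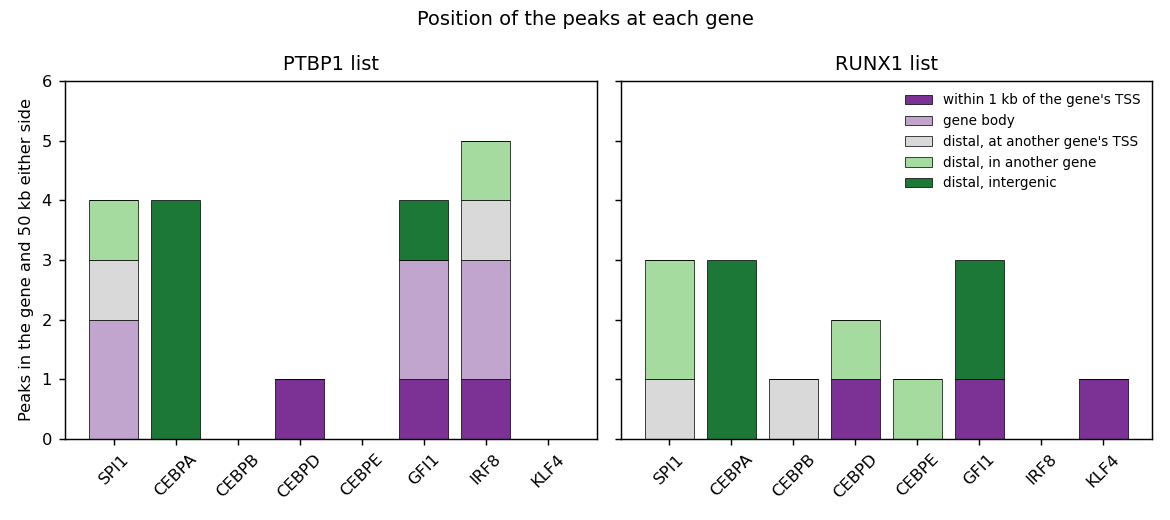
Number of PTBP1 peaks (left) and RUNX1 peaks (right) in each gene and the 50 kb on either side, stacked by position class. Gene body peaks are seen for PTBP1 at SPI1, GFI1 and IRF8 and for RUNX1 at no gene, and all peaks around CEBPA are intergenic.

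CEBPA (ENSG00000245848, chr19:33299934-33302534, minus strand) had the strongest RUNX1 peak of the set. This peak, at chr19:33260392-33262045, had its summit 41.7 kb downstream of the TSS in intergenic sequence, with a fold enrichment of 67.7 and 89 fragments (exact 95% Poisson interval 71.5 to 110). It ranked 206 among the 7688 RUNX1 peaks and 91 among the 3559 that lay away from any annotated TSS. A PTBP1 peak at chr19:33260702-33261828 lay wholly within it, with its summit 127 bases away, a fold enrichment of 12.8 and 21 fragments (13.0 to 32.1), near the median of the PTBP1 list (12.2). The RUNX1 enrichment at this place thus stood above 97.3% of its list and the PTBP1 enrichment above 52.6% of its own.

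The other peaks around CEBPA were also downstream and intergenic. A second overlapping pair lay 33.6 to 34.0 kb downstream of the TSS, with fold enrichments of 9.30 for PTBP1 and 9.77 for RUNX1 and summits 378 bases apart, and both were in the weaker part of their lists. RUNX1 alone was called 35.3 kb downstream, with a fold enrichment of 13.5 and 17 fragments. PTBP1 alone was called 42.8 kb downstream, with a fold enrichment of 11.0, and 8.9 kb downstream at chr19:33292895-33294098, with a fold enrichment of 16.9 and 28 fragments (18.6 to 40.5). The last was the strongest PTBP1 peak among the 18. None of these peaks came within 1 kb of an annotated TSS, and the CEBPA gene itself, with its promoter, held no called peak.

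GFI1 (ENSG00000162676, chr1:92473043-92486925, minus strand, 7 exons) had peaks of both lists over its TSS and again downstream of the gene. The RUNX1 peak at chr1:92484767-92487352 covered the TSS, with the summit 51 bases into exon 1 in the UTR, a fold enrichment of 30.8 and 40 fragments (28.6 to 54.5), above 84.8% of the list. The PTBP1 peak at chr1:92485200-92487029 also covered the TSS but had its summit in intron 1, 730 bases from the TSS and 679 bases from the RUNX1 summit. Its fold enrichment was 16.3 with 27 fragments (17.8 to 39.3). PTBP1 had further peaks inside the gene, one in the UTR part of exon 2, 3.4 kb from the TSS, and one in the coding part of exon 4, 6.0 kb from it. Their fold enrichments were 9.30 and 10.5, and RUNX1 had no peak there.

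Downstream of GFI1, beyond the end of the gene, a PTBP1 peak at chr1:92459771-92460693 had a fold enrichment of 15.7 and 26 fragments, 26.9 kb from the TSS. It overlapped a RUNX1 peak at chr1:92459877-92460824 with a fold enrichment of 19.5 and 25 fragments, and the summits lay 193 bases apart. RUNX1 alone was called nearby at chr1:92461406-92462239, with a fold enrichment of 21.8 and 28 fragments, at the window with 3 copies of the RUNX motif. GFI1 and CEBPA were thus the genes with overlapping peaks in intergenic sequence.

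CEBPD (ENSG00000221869, chr8:47736913-47738164, minus strand) was the other gene with both proteins at the TSS. PTBP1, at chr8:47737895-47738969, had a fold enrichment of 14.5 with 24 fragments (15.4 to 35.7), and RUNX1, at chr8:47737387-47738995, had 14.3 with 18 fragments. Both peaks covered the TSS, with summits 259 and 103 bases upstream of it and 156 bases from each other. A second RUNX1 peak, 3.2 kb downstream of the TSS in the body of SPIDR, was stronger, with a fold enrichment of 21.8 and 28 fragments, and had no PTBP1 partner. The RUNX1 peak at the TSS was near the list median (15.0).

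SPI1 (ENSG00000066336, chr11:47354860-47378547, minus strand, 5 exons) had all of its RUNX1 peaks upstream and on a raised background. The background at all 3 was 8.24 times the value usual for the list, and the same factor held for 1 of the 4 PTBP1 peaks. Around the 8 genes, 3 of 14 RUNX1 peaks and 1 of 18 PTBP1 peaks had a raised background, against 5.14% and 4.86% of the lists. The 3 RUNX1 peaks all lay in this 1 window. The strongest RUNX1 peak, at chr11:47408087-47408551, lay 29.8 kb upstream at the TSS of SLC39A13 and SLC39A13-AS1, with a fold enrichment of 16.4 from 60 fragments (45.8 to 77.2). It contained a PTBP1 peak with a fold enrichment of 6.78 from 46 fragments (33.7 to 61.4), whose summit was 15 bases away. The other RUNX1 peaks, at chr11:47394648-47395035 and chr11:47393252-47393596, lay 16.3 and 14.9 kb upstream in the body of SLC39A13-AS1, with fold enrichments of 9.95 and 6.99. Whether the raised background had a part in these calls was not tested, and without peaks of this kind SPI1 kept 3 PTBP1 peaks and 0 RUNX1 peaks.

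The PTBP1 peaks of SPI1 on the usual background were weak. They lay in intron 1 (2.0 kb from the TSS, fold enrichment 8.14), in intron 3 (19.2 kb, 8.72) and 36.9 kb upstream in SLC39A13 (7.56), with 12 to 14 fragments each. They were stronger than 3.96% to 14.2% of the PTBP1 list. The RUNX1 peak 16.3 kb upstream held 3 RUNX motifs along its whole length, the nearest 88.5 bases from the summit and so outside the window of 50 bases to either side.

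IRF8 (ENSG00000140968, chr16:85899116-85922606, plus strand, 9 exons) had 5 PTBP1 peaks and no RUNX1 peak in its window, the most PTBP1 peaks of the 8 genes. The peak at chr16:85898778-85899087 lay just upstream of the TSS without covering it, with a fold enrichment of 10.5 and 17 fragments. Peaks in intron 6, 16.2 kb from the TSS, and intron 7, 20.2 kb from it and near the TSS of MIR6774, each had a fold enrichment of 9.30 with 15 fragments. Past the end of the gene, PTBP1 had a peak with a fold enrichment of 7.56 at the TSS of the noncoding gene ENSG00000285163 and a stronger one in its body, 29.4 kb from the IRF8 TSS at chr16:85927974-85929454, with 16.3 from 27 fragments. The nearest RUNX1 summit to the IRF8 TSS was 59.3 kb away, outside the window.

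KLF4, CEBPB and CEBPE each had a single RUNX1 peak and no PTBP1 peak. KLF4 (ENSG00000136826, chr9:107484852-107490482, minus strand) had it at chr9:107489813-107490439, 650 bases inside the annotated 5′ end of the gene and 63 bases upstream of the start of the canonical transcript. This was a weak peak, with a fold enrichment of 8.27 from 10 fragments (4.80 to 18.4), above 5.02% of the list. CEBPB (ENSG00000172216, chr20:50190830-50192668, plus strand) had its peak 37.0 kb upstream at the TSS of PEDS1, with a fold enrichment of 14.3 from 18 fragments. For CEBPE (ENSG00000092067, chr14:23117036-23120256, minus strand) the peak was 34.3 kb upstream in the body of SLC7A8, with a fold enrichment of 10.5 from 13 fragments. The nearest PTBP1 summit was 207 kb from the TSS of KLF4, 741 kb from that of CEBPB and 62.5 kb from that of CEBPE. Absence from a list means that no peak passed the q-value of 1e-07 used by the authors, and weaker signal cannot be told from none.

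In both lists, the median fold enrichment of the peaks around the 8 genes lay below that of the whole list. The median fold enrichment of the 18 PTBP1 peaks was 9.88 (range 6.78 to 16.9) against 12.2 for the list, and 6 of 18 were above the list median. Away from any TSS the medians were 9.88 for the 12 peaks of these genes and 10.5 for the list. The median of the 14 RUNX1 peaks was 14.3 (range 6.99 to 67.7) against 15.0, and 6 of 14 were above the list median. Away from any TSS the RUNX1 medians were 13.5 for 9 peaks and 14.3 for the list. By fragments at the summit the RUNX1 medians went the other way, 25 for these genes and 20 for the list. Away from any TSS they were 25 and 19. The PTBP1 medians by fragments were 17 and 21, and 16 and 17 away from any TSS. The 14 RUNX1 peaks included 3 on a raised background, all in the SPI1 window, with 60, 36 and 25 fragments. Whether these 3 peaks account for the higher fragment medians or for the lower fold enrichment was not tested. The fragment medians are therefore not read as a trait of the 8 genes. PTBP1 was called on a usual background of 0.720 fragments and RUNX1 on 0.330, so fold enrichments are not compared between the lists.

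**Figure D3:**
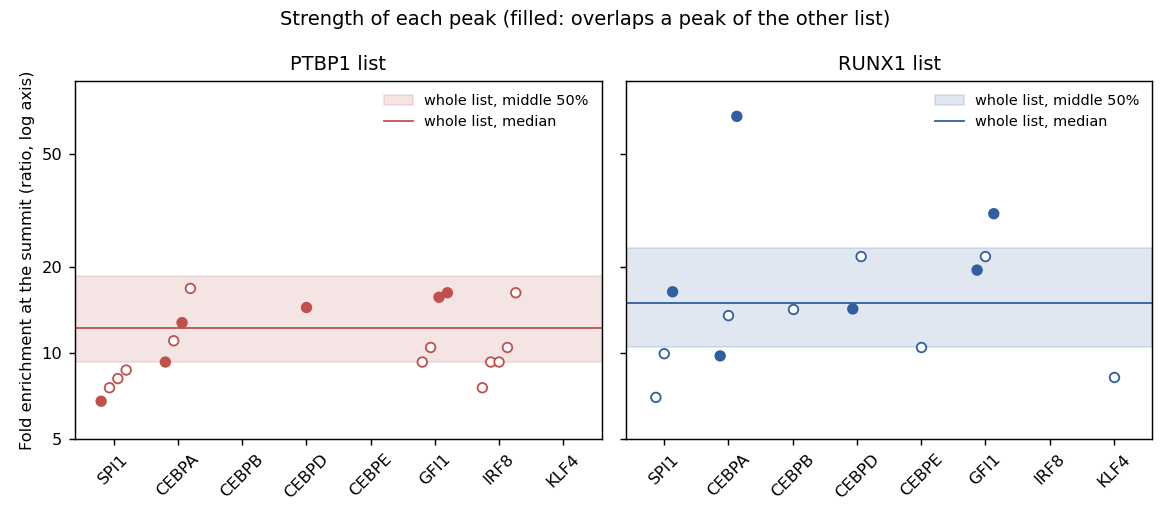
Fold enrichment at the summit of every PTBP1 peak (left) and RUNX1 peak (right) by gene, on a log axis, with the median and the middle 50% of the whole list as line and band. Filled points overlap a peak of the other list, and the CEBPA point at 67.7 and the GFI1 point at 30.8 are the RUNX1 peaks above the band.

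PTBP1 and RUNX1 peaks overlapped by at least 1 base in 6 pairs at 4 genes, 1 at SPI1, 2 at CEBPA, 1 at CEBPD and 2 at GFI1. Overlap thus held for 6 of 18 PTBP1 peaks (33.3%, 95% Wilson interval 16.3 to 56.3), against 49.2% of the PTBP1 list. Of the RUNX1 peaks, 6 of 14 overlapped (42.9%, 21.4 to 67.4), against 60.2% of that list. Overlap was more frequent at TSS over the whole lists, where 61.3% of all PTBP1 peaks and 77.9% of all RUNX1 peaks overlapped. At a TSS, 3 of 6 PTBP1 peaks of these genes overlapped (50%, 18.8 to 81.2) and 3 of 5 RUNX1 peaks (60%, 23.1 to 88.2). At the TSS of any gene lay 6 of 18 PTBP1 peaks (33.3%, 16.3 to 56.3) against 56.6% of the list, and 5 of 14 RUNX1 peaks (35.7%, 16.3 to 61.2) against 53.7%. Away from any TSS, 3 of 12 PTBP1 peaks of the genes overlapped (25%, 8.89 to 53.2) against 33.4% of the list, and 3 of 9 RUNX1 peaks (33.3%, 12.1 to 64.6) against 39.7%. All of these intervals treat each peak as independent, although several peaks lie in the window of the same gene. They are a description, and a difference from the lists was not tested.

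The RUNX motif was present within 50 bases of the summit at 4 of the 14 RUNX1 peaks (28.6%), 2 at CEBPA, 1 at CEBPE and 1 at GFI1, against 24.2% of all RUNX1 summits. It was present at 2 of the 18 PTBP1 summits (11.1%), at GFI1 and at SPI1, against 8.79% of the PTBP1 list. All 4 RUNX1 matches were away from any TSS, 4 of 9 such summits against 35.6% in the list, and 0 of 5 summits at a TSS held the motif against 14.3%. Over the whole length of the peak, 9 of 14 RUNX1 peaks held at least 1 copy (64.3%) against 60.9% of the list, with 6 copies in the CEBPA peak 41.7 kb downstream and 4 in the GFI1 peak 25.04 kb downstream. Longer peaks offer more positions for a match. The median distance from a RUNX1 summit to the nearest copy within 2 kb was 214 bases for these genes and 210 bases for the list.

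Motif letters of the factors themselves were found at few of the summits. The PU.1 letters were found at 1 of 18 PTBP1 summits (IRF8) and 1 of 14 RUNX1 summits (KLF4), against 9.45% and 12.4% of the lists. The C/EBP letters were found at 2 PTBP1 summits (GFI1 and IRF8) and 0 RUNX1 summits, against 2.26% and 3.99%. One PTBP1 summit (GFI1) held the ETS-IRF letters, against 1.88%, and 1 (CEBPA) the KLF letters, against 8.45%, while the GFI1 letters were at 0 summits of either list. In the 250 bases upstream of the TSS, the RUNX letters were found at 0 of the 8 genes against 16.5% of all protein-coding genes, and the PU.1 letters at 3 (SPI1, CEBPD and CEBPE) against 23.2%. SPI1 also held the C/EBP letters there (7.97% of all genes) and CEBPB the KLF letters (17.8%). The TSS here is the annotated 5′ end of the gene, which at CEBPE, KLF4 and IRF8 is not the start of the canonical transcript.

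Other lists of genes give a frame for the TSS counts, beside the 26.4% of all protein-coding genes with a PTBP1 peak there and the 21.3% with a RUNX1 peak. Among 19 family relatives, PTBP1 had a TSS peak at 7, CEBPG, IRF3, IRF7, KLF2, KLF6, KLF10 and KLF13, and RUNX1 at 6 of the same genes, all except IRF3. Of the 7 genes of the stem cell heptad, factors that act together in blood progenitors, LYL1 had a TSS peak of both lists and TAL1 of RUNX1 alone. Among 20 myeloid genes that the factors are known to regulate, PTBP1 and RUNX1 both had peaks at the granule protein genes AZU1, CTSG and ELANE, and RUNX1 also at ITGAM. Of the markers used as a check of the cell type, 1 of 10 myeloid genes (CD68) had a PTBP1 peak and 2 (CD68 and ITGAM) a RUNX1 peak, while 0 of 8 B and T cell genes and 1 of 6 erythroid genes (EPOR) had either. The marker shares, 10% and 20% for the myeloid genes and 16.7% in both lists for the erythroid genes, lay below those of all genes. The marker counts thus do not single out myeloid genes. A peak is not expression, so these counts do not show which factors the cells make.

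**Figure D4:**
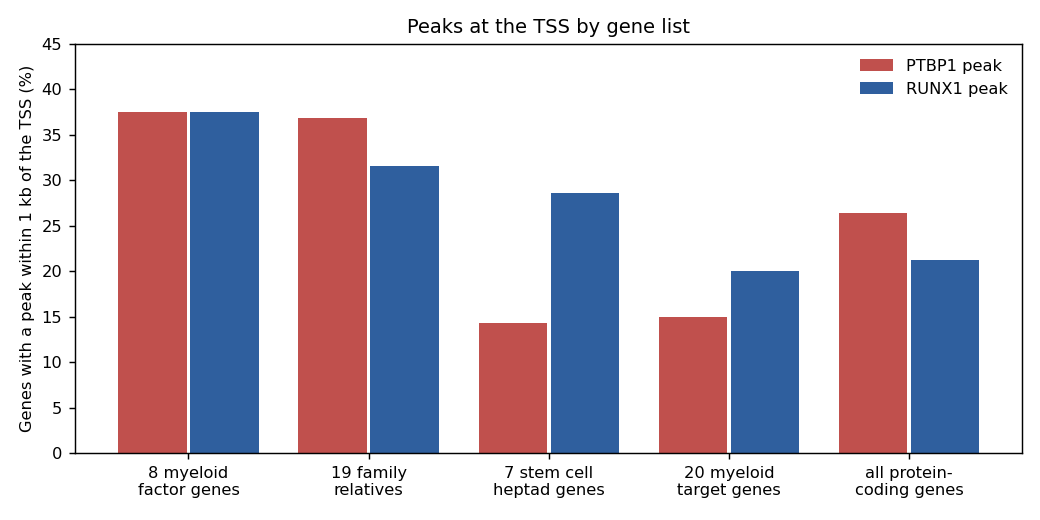
Percent of genes with a PTBP1 or RUNX1 peak within 1 kb of the TSS in the 8 myeloid factor genes, 19 family relatives, 7 stem cell heptad genes, 20 myeloid target genes and all protein-coding genes. The 8 genes stand at 37.5% for both lists, against 26.4% and 21.3% of all genes and each of their bars rests on 3 genes.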

How the data were processed

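Peak positions in MOLM-13 were analysed from 1 PTBP1 and 1 RUNX1 list. The authors aligned reads to hg38 with Bowtie2, filtered them on mapping quality, deduplicated them and called peaks at q 1e-07 with MACS3. The submitters' processing notes name bedtools 2.30.0. The lists name a target but no assay, and were taken as CUT&Tag because the study's methods describe MACS3 peaks for that assay. Replicate pooling and control are not given in the sources used here, and pooling would hide variation between replicates. The deposited values are the fold enrichment, a ratio of pileup to background, and its −log10 p-value and −log10 q-value. Library totals were not used.

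From the first pair of values a whole number of fragments and a background were solved for each peak (largest difference from the deposited −log10 p-value 0.00134), and a background above 1.5 times the usual one was called raised. Depth was looked at only through these fragments, 12 to 46 for PTBP1 and 10 to 89 for RUNX1 around the genes. Its bearing on which peaks were called, and so on the counts and overlaps, was not tested. Genes, exons and the canonical transcript came from GENCODE version 44, and coordinates are 1-based. All 8 genes were named with every peak in the gene or 50 kb either side, and other genes where a distal peak lay in them or at their TSS. Genes and lists were chosen with earlier results of these data known. No test was made. The procedures were tested on simulated data. Alternatives covered the q-value, window, TSS rule, overlap, other genes' TSS, motif and its window, and the raised background. Python 3.11.15, numpy 2.4.6, pandas 2.3.3, scipy 1.17.1, pysam 0.24.0 and matplotlib 3.10.9 were used.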

Additional observations from a re-analysis of the deposited data

How the results depend on the processing

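Of 30 alternatives tried over 8 results, 29 stayed within the limits set for a like value and 1 moved. These limits were wide, since counts of 26 or 13 in place of 18 and of 2 in place of 3 stayed within them. The 29 is therefore not read as a measure of stability. With a window of 25 kb in place of 50 kb either side, the RUNX1 peaks around the genes numbered 8 in place of 14. The PTBP1 peaks then numbered 13 in place of 18. With 100 kb they were 26 and 20. The exclusion of peaks on a raised background, chosen after seeing the data, left 17 PTBP1 and 11 RUNX1 peaks and removed every RUNX1 peak of SPI1. If a peak had to cover the TSS, 2 genes had a TSS peak in each list, in place of 3. Overlaps numbered 4 in place of 6 with summits at most 200 bases apart. A motif window of 100 bases either side raised the share of RUNX1 summits with the RUNX motif from 28.6% to 42.9%, and TGTGGT alone lowered it to 21.4%. For PTBP1 summits the share went from 11.1% to 27.8% and to 5.56%. These motif shares lay within the 95% Wilson interval of the value reported. A wider window offers more positions for a match. The whole-list shares given above hold for 50 bases either side only and are not set against the wider window. No paired analysis was possible because there is 1 peak list per target. The number of fragments at a summit limits the weakest calls, such as the 10 fragments at KLF4.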

Other observations

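Several peaks lay between 50 and 100 kb from the genes and so entered no count. Upstream of IRF8, whose window had no RUNX1 peak, a RUNX1 peak at chr16:85829491-85830355 had a fold enrichment of 45.9 from 60 fragments, 69.3 kb from the TSS in sequence away from any TSS. A PTBP1 peak with a fold enrichment of 10.5 overlapped it. The strongest peak of each list at this range was at the TSS of MADD, past the end of SPI1, with fold enrichments of 75.2 from 99 fragments for RUNX1 and 33.1 from 56 fragments for PTBP1. At IRF8, a weaker RUNX1 peak stood 59.3 kb upstream, with a fold enrichment of 9.77. CEBPA had 1 more intergenic RUNX1 peak, 53.1 kb downstream, with a fold enrichment of 15.0. On the other side of CEBPA, the TSS of CEBPG, a C/EBP relative, had peaks of both lists, with fold enrichments of 18.6 for PTBP1 and 22.6 for RUNX1. Around CEBPE, PTBP1 peaks appeared 62.5 to 85.2 kb downstream of the TSS, the strongest at the TSS of CDH24 with a fold enrichment of 22.7, where a RUNX1 peak with a fold enrichment of 9.02 overlapped it.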
